A study of Mus musculus with 15 samples.

Results

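The T cell receptor complex and the proteins that carry its first signals were followed through 9 genes in mouse heart and liver allografts, chosen by gene name, with earlier results of these data known. They were the receptor chains Cd3d, Cd3e, Cd3g and Cd247, the kinases Lck and Zap70, and the adaptors Lat, Lcp2 and Trat1. All 9 had a named probe among the 32301 gene names of the array, and 11 probes read them, 3 of which belonged to Cd247. The series holds 15 single-colour Agilent arrays of total RNA in 5 groups of 3.

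The heart allograft group at post-operative day 5 (POD5) was C57BL/10 (B10, H-2b) hearts in CBA (H-2k) recipients. These hearts were grafted with their vessels into the abdomen, outside the normal place of the heart. The liver allograft groups at POD5 and POD8 were B10.BR (BR, H-2k) livers that replaced the liver of B10.D2 (D2, H-2d) recipients. The heart control and liver control groups were described as normal tissue in the methods and as isografts elsewhere in the study. Their sample titles call them normal, and their strain was not given in the sources used here. If the controls were not grafted, grafting itself and the response to donor tissue cannot be told apart in the comparisons with them. All mice were male and no immunosuppression was named for any group. A graft holds donor tissue together with the recipient cells that have entered it, so each value below is a mixture of both. In such bulk RNA, fewer T cells and less RNA per T cell cannot be told apart. The labels do not say whether the 3 arrays of a group came from separate animals, so the p-values measure the spread between these samples only.

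As background, the receptor of a T cell recognises a peptide on an MHC molecule through its alpha and beta chains, which have no signalling part of their own. The gamma, delta and epsilon CD3 chains (Cd3g, Cd3d and Cd3e) and the zeta chain (Cd247) carry the tyrosine motifs that Lck, a kinase held at the coreceptors CD4 and CD8, phosphorylates. Zap70 then docks on these motifs and phosphorylates the membrane adaptor Lat and the cytosolic adaptor Lcp2 (SLP-76), on which the calcium, Ras and cytoskeletal branches of the signal assemble. Trat1 (TRIM) is a transmembrane adaptor that associates with the receptor. In rejection of an allograft, recipient T cells that recognise donor MHC enter the graft, and these genes are widely used as markers of T cells, although natural killer cells also use Cd247, Lck, Zap70 and Lcp2, and myeloid cells use Lcp2.

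The genes lie on 6 chromosomes of the mouse build GRCm38.p6 as RefSeq places them. Cd3g (chr9:44969572-44980431), Cd3d (chr9:44981769-44987052) and Cd3e (chr9:44998735-45009663) are neighbours on chromosome 9. Cd247 (chr1:165779952-165871153) and Zap70 (chr1:36761798-36782821) are far apart on chromosome 1. Lck, Lat, Lcp2 and Trat1 are on chromosomes 4, 7, 11 and 16. The 250 bases before the transcription start are shown for 4 of them, the genes whose window lay wholly outside the annotated gene, so that Zap70, whose difference was larger in heart than in liver, can be read beside 3 genes that rose in both organs. Each window is from RefSeq's GRCm38.p6 promoter table, written 5′ to 3′ on the gene's own strand, with matches to the ETS core (AGGAAG or CGGAAG) and the RUNX core (TGTGGT) on either strand in capitals. The windows are chr9:44980432-44980681 (minus strand) for Cd3g, chr4:129573642-129573891 (minus strand) for the upstream start of Lck, chr1:36761548-36761797 (plus strand) for the first of 3 starts of Zap70, and chr11:34046678-34046927 (plus strand) for Lcp2.
Cd3g: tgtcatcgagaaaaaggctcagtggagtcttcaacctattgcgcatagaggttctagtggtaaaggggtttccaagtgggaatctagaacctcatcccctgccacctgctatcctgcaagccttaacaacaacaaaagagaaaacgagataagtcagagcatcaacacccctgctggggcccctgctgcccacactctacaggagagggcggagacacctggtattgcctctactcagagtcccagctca
Lck: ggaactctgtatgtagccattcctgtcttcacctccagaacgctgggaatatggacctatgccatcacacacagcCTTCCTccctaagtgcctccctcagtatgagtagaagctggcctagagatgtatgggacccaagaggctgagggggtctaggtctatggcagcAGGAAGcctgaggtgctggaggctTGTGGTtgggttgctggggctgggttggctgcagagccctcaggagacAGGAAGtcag
Zap70: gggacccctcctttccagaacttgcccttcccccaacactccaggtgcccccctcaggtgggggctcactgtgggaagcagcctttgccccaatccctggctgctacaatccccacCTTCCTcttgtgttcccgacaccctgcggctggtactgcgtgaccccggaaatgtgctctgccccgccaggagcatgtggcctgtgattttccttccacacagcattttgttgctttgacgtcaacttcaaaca
Lcp2: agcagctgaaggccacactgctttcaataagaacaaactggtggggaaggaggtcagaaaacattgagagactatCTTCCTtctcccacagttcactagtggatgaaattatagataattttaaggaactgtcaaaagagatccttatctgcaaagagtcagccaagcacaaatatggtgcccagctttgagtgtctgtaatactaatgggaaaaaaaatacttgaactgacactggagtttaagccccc
Over the 12 windows of the 9 genes, 9 held AGGAAG on either strand against 29.5% of the 32851 promoter windows of the same length. None of the 12 held CGGAAG, which 13.6% of all windows held, and 3 held TGTGGT against 14% of all. The ETS and RUNX families are transcription factors that act in many blood cells. A match is a description of these letters and not a bound site, and the 3 windows of Zap70 and the 2 of Lck come from the same genes.

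The arrays differed in brightness. The 75th percentile of the processed signal was 394 to 710 in heart allografts, 1021 to 1247 in heart controls, 338 to 478 and 384 to 454 in liver allografts at POD5 and POD8, and 92.1 to 226 in liver controls, the dimmest group. The share of probes well above background ran from 52.5% on a liver control array to 70.5% on a heart control array, and no spot was saturated. All signals were therefore put on 1 scale by quantile normalization, and the levels below are log2 normalized signals, compared only within a probe. The tissues matched their labels, since all 6 cardiomyocyte markers were well above background on every heart array and all 5 measured hepatocyte markers on every liver array. This does not exclude some signal of the other tissue. The summed normalized signal of the hepatocyte markers was 605 to 6526 in heart controls and 216 to 375 in heart allografts. It was 593236 to 622394 in liver controls.

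In heart allografts, 8 of the 9 genes rose at POD5, by 3.58-fold for Lcp2 to 31.4-fold for Lck, and only Trat1 did not pass the test. The same call was made for 15.6% of all 41025 probes tested, and in 29.1% of them every allograft array lay above every control array, as was so for 8 of the 9 genes. The median difference of the 9 genes was 4.02 on the log2 scale, against 0.02 over all probes. Among the receptor chains, Cd3d, whose chain pairs with the epsilon chain, read 12.04, 11.81 and 12.16 in heart allografts and 7.02, 7.08 and 7.89 in heart controls. The lowest allograft array was far above the highest control array, and the log2 difference was 4.68 (SE 0.27, limma adjusted p = 0.000771). Cd3g read 10.52, 9.94 and 10.48 against 5.97, 6.13 and 6.78, again with a wide gap between the groups (log2 difference 4.02, SE 0.28, adjusted p = 0.0011). Cd3e, the chain that each CD3 pair needs, read 7.81, 7.39 and 7.90 against 4.76, 5.41 and 4.84. Its difference of 2.70 (SE 0.24, adjusted p = 0.00177), which is 6.48-fold, was the smallest of the receptor chains. Cd247 read 8.89, 9.19 and 9.37 against 5.63, 5.37 and 5.83 on its brightest probe (log2 difference 3.55, SE 0.18, adjusted p = 0.00066).

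Both kinases rose in the heart allografts. Lck read 11.37, 11.18 and 11.84 in heart allografts and 6.53, 6.26 and 6.70 in heart controls, a log2 difference of 4.97 (SE 0.22, adjusted p = 0.000532). Zap70 read 9.88, 9.85 and 10.42 against 5.31, 5.21 and 5.42, and its 3 control arrays lay within a narrow band. Its rise of 26.6-fold (log2 difference 4.74, SE 0.18, adjusted p = 0.000437) is set against liver below. Of the adaptors, Lat read 9.66, 10.08 and 10.25 against 4.98, 4.85 and 5.67, a difference of 4.83 (SE 0.28, adjusted p = 0.000776). Lcp2 read 10.65, 10.72 and 10.96 in allografts and 9.31, 8.43 and 9.06 in heart controls, a 3.58-fold rise (SE 0.25 on the log2 scale, adjusted p = 0.00557). Its unscaled signals overlapped, at 2316, 1589 and 2821 in allografts and 1746, 789 and 1265 in heart controls, the brightest arrays. The size of this rise and the gap between the groups thus rest on the scaling between arrays. Trat1 read 3.33, 3.65 and 3.68 in allografts and 2.84, 2.95 and 3.65 in controls, and it was well above background on 1 allograft array and all 3 control arrays. Its groups overlapped and its difference was 0.41 (95% interval −0.22 to 1.04, adjusted p = 0.271). It passed with 75th percentile scaling, which raised the median of all probes in this comparison to 0.47.

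**Figure D1:**
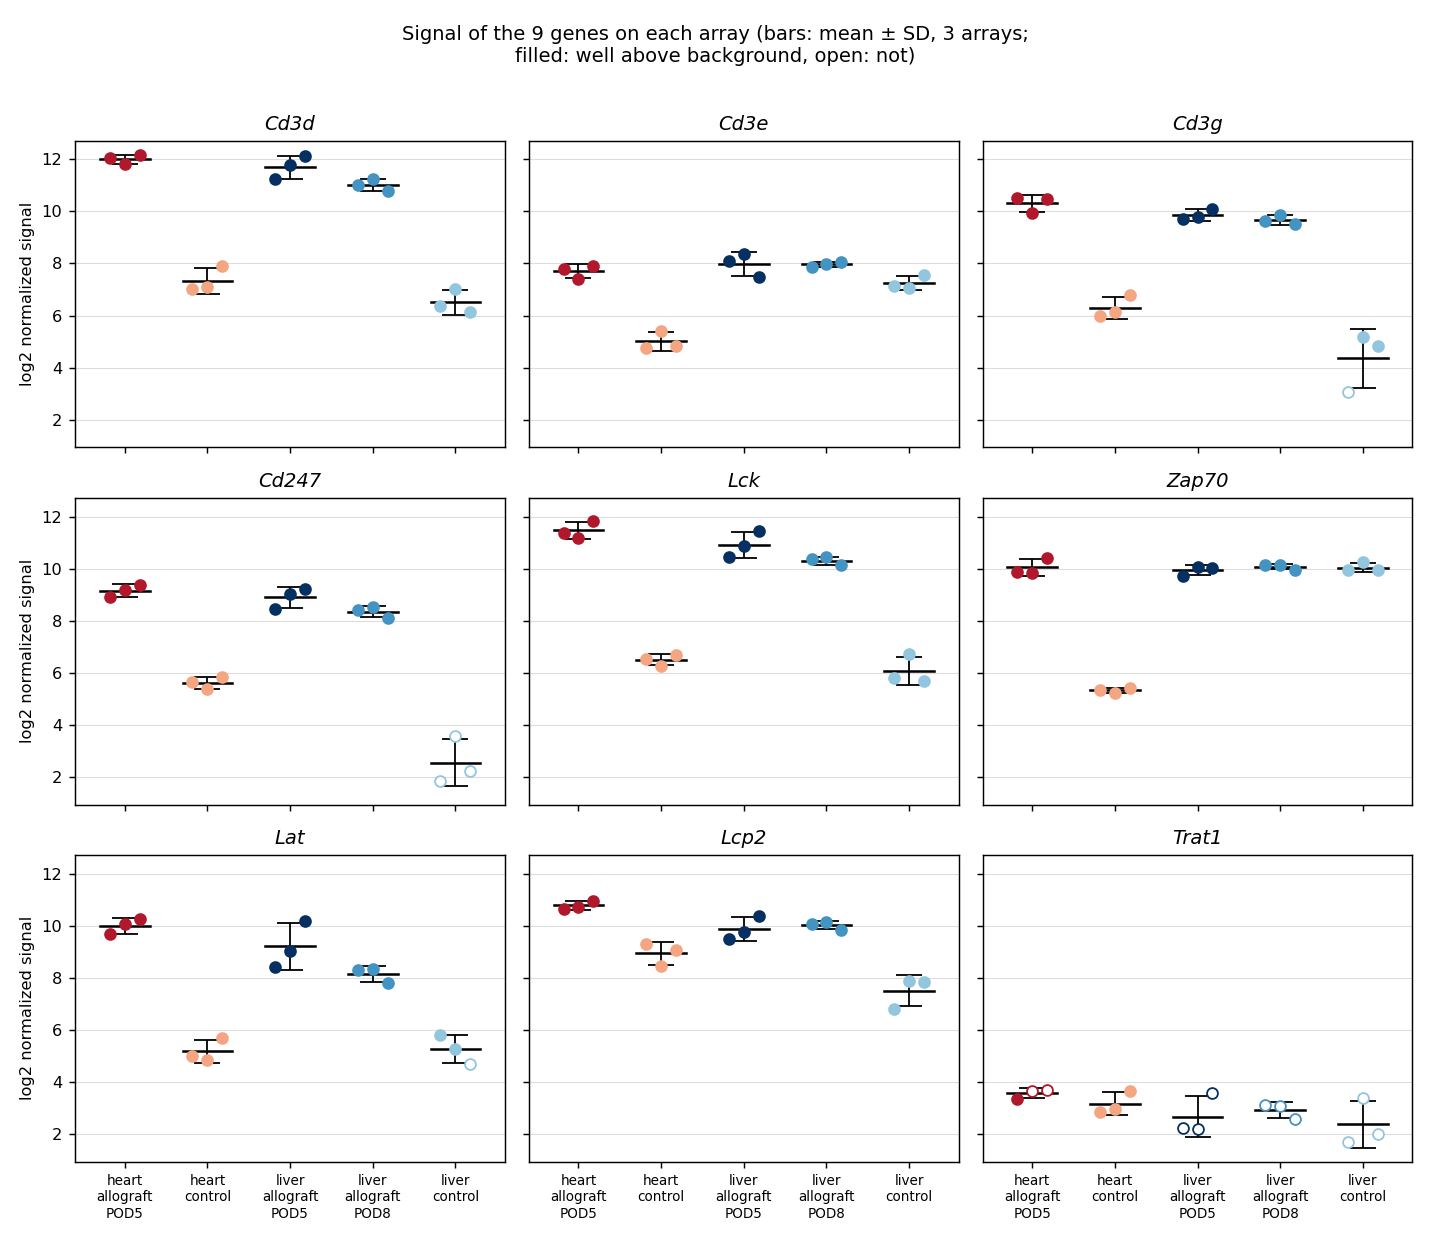
Log2 normalized signal (vertical axis) of the brightest probe of each of the 9 genes on each of the 15 arrays, by group (horizontal axis); points are arrays, filled where the probe was well above background and open where not, and bars give the mean ± SD of 3 arrays. Zap70 stands near 10 in liver controls as in all allografts, while Lck, Cd3d and Lat are low in both control groups and Trat1 is dim in every group.

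The 3 heart allograft arrays were on 1 slide and the 3 heart controls on another, so slide and group cannot be told apart. Leaving out any of the 6 arrays left 8 of the 9 genes called. By the standardized fold change of the study's methods, which takes each probe's spread from 1000 probes of like signal and applies a Bonferroni correction, 5 of the 9 were called (Cd3d, Cd3g, Lck, Zap70 and Lat), against 0.336% of all probes.

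In liver allografts at POD5, 6 of the 9 genes rose: Cd3d, Cd3g, Cd247, Lck, Lat and Lcp2. The same call was made for 2.38% of all 41155 probes, and the 6 genes were also those whose allograft arrays all lay above every control array, which 12.4% of all probes did. The median over the 9 genes was 3.96 against −0.07 over all probes. Cd3d read 11.23, 11.77 and 12.11 in liver allografts and 6.36, 7.03 and 6.12 in liver controls (log2 difference 5.20, SE 0.34, adjusted p = 0.00823). Cd3g read 9.70, 9.79 and 10.11 against 3.06, 5.18 and 4.82, and the first control array was not well above background. Its difference was 5.51 (SE 0.58, adjusted p = 0.0183), with most of the spread in the controls. Cd247 read 8.44, 9.0 and 9.22 in liver allografts, and its brightest probe was not well above background on any liver control array, where it read 1.85, 3.55 and 2.22. The allografts were therefore at least 23.6-fold higher, counted against the lowest signal well above background on each control array. The adjusted p of 0.00978 is limma's for the fitted difference of 6.35 and not for this bound.

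Lck read 10.43, 10.86 and 11.44 in liver allografts at POD5 and 5.81, 6.70 and 5.70 in liver controls, a 28.7-fold rise (SE 0.39 on the log2 scale, adjusted p = 0.0103). Lat read 8.41, 9.01 and 10.17 against 5.78, 5.25 and 4.70, and its allograft arrays spread over more than the other genes' did (SD 0.89, log2 difference 3.96, SE 0.53, adjusted p = 0.0307). Lcp2 read 9.49, 9.75 and 10.38 against 6.81, 7.86 and 7.83, a 5.18-fold rise close to the threshold (adjusted p = 0.0463). These 3 genes cover the kinase that starts the signal and both adaptors on which it is built.

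Zap70, the kinase between Lck and Lat, was read by 1 probe, whose sequence was not used here, so whether it reads Zap70 alone in liver was not tested. This holds for each liver value of Zap70 and for the differences between organs that use it. The probe read 9.71, 10.08 and 10.03 in liver allografts at POD5 and 9.93, 10.24 and 9.94 in liver controls, with overlapping groups, a log2 difference of −0.10 (95% interval −0.54 to 0.33) and an adjusted p of 0.777. The interval leaves room for a rise of no more than 0.33 on the log2 scale. The unscaled processed signals of the same probe were 894, 978 and 845 in these allografts and 219, 509 and 531 in the liver controls, whose arrays were dimmer throughout, so this value rests on the scaling between arrays. With each array scaled to its 75th percentile in place of quantiles, Zap70 also did not pass the test in either liver comparison, and its small difference was negative in both. Cd3e read 8.10, 8.36 and 7.49 in liver allografts and 7.13, 7.05 and 7.57 in liver controls. Its lowest allograft array lay under its highest control array, and the difference of 0.74 (95% interval 0.02 to 1.45) did not pass the test (adjusted p = 0.234). Cd3e was also read by 1 probe whose sequence was not used here. Its unscaled signals were 303, 311 and 136 in these allografts and 30.4, 46.6 and 99.3 in the liver controls. The difference for Cd3e thus rests on the scaling between arrays as well. The dim probe of Trat1 gave no liver array a signal well above background.

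**Figure D2:**
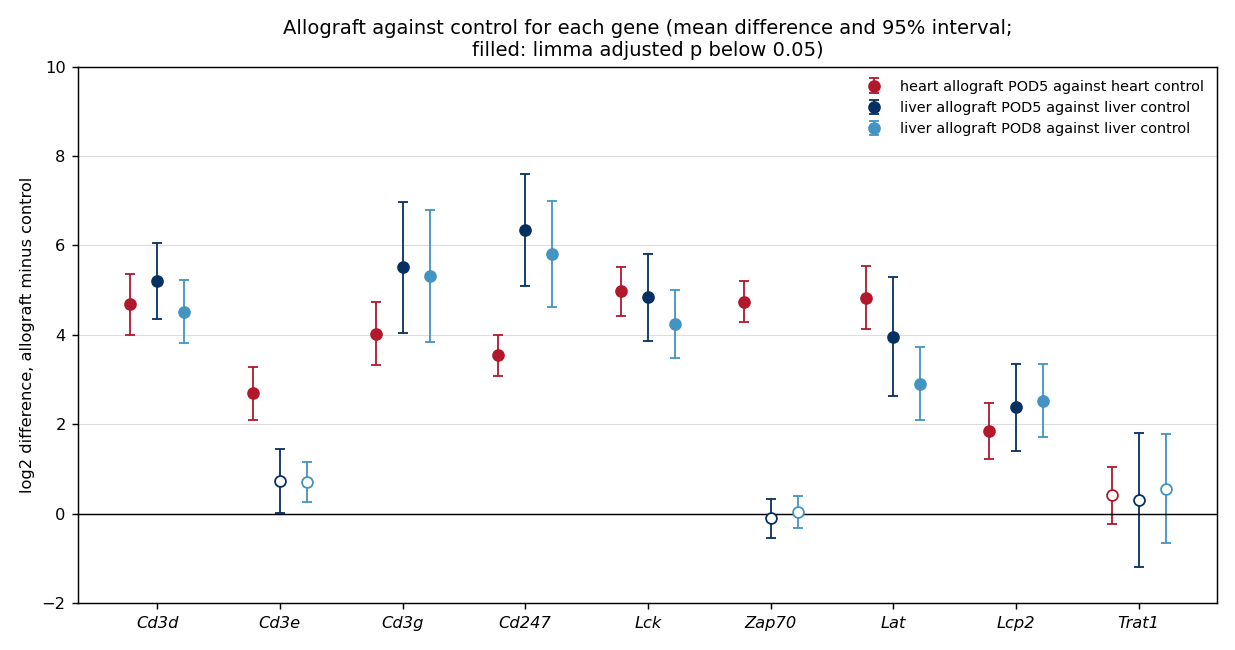
Log2 difference, allograft minus control (vertical axis), of the 9 genes in the heart at POD5 and in the liver at POD5 and POD8; points are differences between means of 3 arrays, bars are 95% intervals, and filled points passed limma at an adjusted p under 0.05. Cd3d, Cd3g, Cd247, Lck, Lat and Lcp2 are filled in all 3 comparisons, Zap70 and Cd3e in heart alone, and the liver values of Cd247 are set against control arrays where its probe was not well above background.

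The liver calls at POD5 rested on few arrays, and these allografts shared no slide with the liver controls. With slide as a random block 5 of the 6 genes passed, and Lcp2 lost its call (log2 difference 2.39, adjusted p = 0.0846). Without the second POD5 array no gene was called, without the first 1 was, and without the third 3 were, while leaving out any of the liver controls left 4. The number of probes called overall fell with it, from 1301 to 28 without the second array. The differences of the 6 genes stayed positive in each of these fits. By the standardized fold change 5 genes were called (Cd3d, Cd3g, Cd247, Lck and Lat), against 0.787% of all probes.

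At POD8 the same 6 genes were higher in liver allografts than in liver controls, against 3.53% of all 41157 probes. Those comparisons share the liver control arrays, so POD8 is no independent repeat of POD5. Cd3d read 11.02, 11.24 and 10.79 in the allografts (log2 difference 4.51, SE 0.28, adjusted p = 0.00313). Cd3g read 9.62, 9.87 and 9.51 (5.31, SE 0.58, adjusted p = 0.0142). Cd247 read 8.41, 8.52 and 8.10, at least 16.1-fold above the controls, with adjusted p = 0.00645 for the fitted difference of 5.81. The receptor chains thus kept to a band of under 0.5 on the log2 scale between arrays of the group. Lck read 10.36, 10.43 and 10.12 (4.24, SE 0.30, adjusted p = 0.00461). Lat read 8.30, 8.35 and 7.80 (2.91, SE 0.32, adjusted p = 0.0146) and Lcp2 read 10.07, 10.14 and 9.85 (2.52, SE 0.32, adjusted p = 0.0215).

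Zap70 read 10.12, 10.15 and 9.95 at POD8 and again overlapped the liver controls, with a difference of 0.03 (95% interval −0.32 to 0.38, adjusted p = 0.901). Cd3e read 7.85, 7.98 and 8.06, and here all 3 allograft arrays lay above all 3 controls, as they did for 12.9% of all probes. Its difference of 0.71 (95% interval 0.27 to 1.16) did not pass the test (adjusted p = 0.0933). Without the first POD8 array 2 of the 9 genes were called, without the second or the third 3 were, and without the third control array 7 were. The standardized fold change called 4 (Cd3d, Cd3g, Cd247 and Lck), against 0.819% of all probes.

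The POD8 allografts and the liver controls shared 1 slide. Slide 4 held the first and second arrays of POD8 and of the liver controls, and within it the log2 differences were 4.43 for Cd3d, 5.62 for Cd3g, 5.77 for Cd247, 4.14 for Lck, 2.81 for Lat and 2.77 for Lcp2. They were 0.83 for Cd3e and 0.05 for Zap70. The differences were about as large within the slide as over all slides. These 4 arrays are also part of the full comparison, so this likeness is no independent check. With slide as a fixed block, which leaves these 4 arrays to carry the comparison, none of the 9 passed (adjusted p of 0.0681 for Cd3d and 0.0787 for Lat).

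Between POD8 and POD5 of the liver allografts none of the 9 genes passed the test, and limma called 0% of the 41165 probes. At an unadjusted p under 0.05 there were 5299 probes, the standardized fold change called 213 and the methods' t-test 3. The 95% intervals were −1.34 to −0.04 for Cd3d, −1.30 to 0.08 for Lck and −1.15 to 0.06 for Cd247. Lat gave the widest, −2.23 to 0.13, and was the only gene whose POD8 arrays, at most 8.35, all lay under its POD5 arrays, the lowest of which read 8.41. The share of all probes separated in this way was not counted, so nothing is read from it. Cd3g, Cd3e, Zap70, Lcp2 and Trat1 differed by between −0.20 and 0.25.

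On the normalized scale, the control tissues of the 2 organs differed in some of these genes. Zap70 was 26.4-fold lower in heart controls than in liver controls (log2 difference −4.72, SE 0.14, adjusted p = 1.36e-05), and Cd3e was 4.75-fold lower (−2.25, SE 0.24, adjusted p = 0.00114). Cd3g (1.94, SE 0.61, adjusted p = 0.0476) and Lcp2 (1.43, SE 0.39, adjusted p = 0.0286) were higher in heart controls, and so was Cd247 on its brightest probe. That probe was at least 2.42-fold higher, with adjusted p = 0.0039 for the fitted difference of 3.07. The second Cd247 probe gave −0.77 (adjusted p = 0.549), and the third, at background level in both groups, −0.59 (adjusted p = 0.288). Over all 41023 probes, 25.5% were higher and 22.7% lower in heart controls, so calls of either direction were common between these organs. Cd3d (0.82, adjusted p = 0.109), Lck (0.43, adjusted p = 0.305), Lat (−0.08, adjusted p = 0.876) and Trat1 (0.79, adjusted p = 0.249) did not pass. Leaving out an array gave 3 to 7 genes called, 3 without the first or the third heart control and 7 without the second liver control. Of all probes, 15116 to 21443 were called in these fits. Heart and liver controls shared no slide, and with slide as a random block 3 genes were called. These values also rest on the scaling between arrays, since the liver control arrays were dimmer. Unscaled, Cd3e read 66.4, 85.8 and 58.6 in heart controls and 30.4, 46.6 and 99.3 in liver controls. Unscaled Zap70 read 102, 74.1 and 91.8 against 219, 509 and 531. For Cd3d, which did not pass, the unscaled signals were 363, 303 and 567 against 18.3, 46.2 and 38.0.

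Among the allografts at POD5 none of the 9 genes differed between heart and liver by the test, where 16.3% of all probes were higher and 12.9% lower in heart. Zap70 differed by 0.11 (95% interval −0.41 to 0.64) and Cd3e by −0.29 (−0.98 to 0.41). Lcp2 came closest (0.90, 95% interval 0.25 to 1.55, adjusted p = 0.0523), and all 3 heart arrays were above all 3 liver arrays. How many of all probes did so was not counted. The third liver array shared slide 1 with the heart allografts, and against it alone Lcp2 differed by 0.39 and Cd3d by −0.11. Without that liver array 3 of the 9 genes were called, and without the second heart allograft array 1 was. Calls were common among all probes in these 2 fits, at 12139 of 41157 and 13588 of 41162.

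The change with grafting was therefore compared between organs gene by gene. For Zap70 the heart difference exceeded the liver difference at POD5 by 4.84 on the log2 scale (SE 0.26, adjusted p = 5.15e-05), and for Cd3e by 1.96 (SE 0.39, adjusted p = 0.0119). For Cd247 it was 2.80 smaller in heart (−2.80, SE 0.56, adjusted p = 0.0122), a value that includes the liver control arrays on which the probe was not well above background and that with the normexp background correction was −0.62 (adjusted p = 0.115). Of all 41006 probes, 6.41% had a larger and 7.26% a smaller difference in heart. Leaving out any of the 12 arrays left the same 3 genes called. The other 6 genes did not pass, with values from −1.49 for Cd3g (95% interval −3.01 to 0.02) to 0.87 for Lat (−0.53 to 2.28). For Lck the value was 0.13 (−0.91 to 1.17), so the kinase before Zap70 in the pathway had no detectable difference between the organs in its change.

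**Figure D3:**
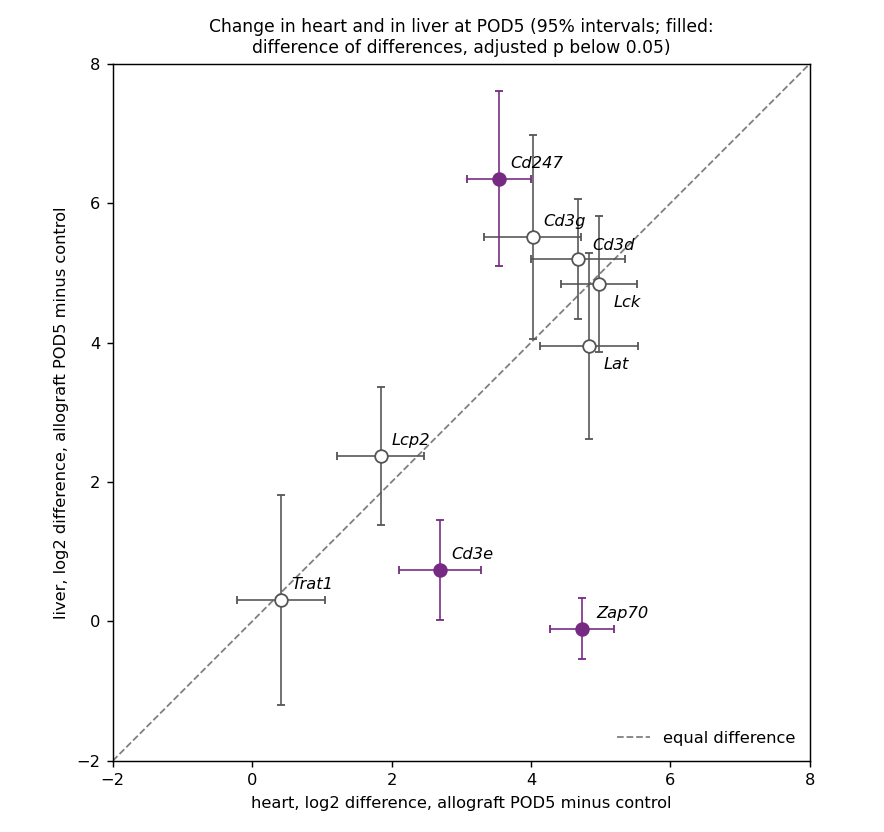
Log2 difference, allograft at POD5 minus control, in the heart (horizontal axis) and in the liver (vertical axis) for the 9 genes, with 95% intervals; the dashed line marks equal differences, and filled points passed the test of the difference between organs. Zap70 (4.74 in heart, −0.10 in liver) and Cd3e (2.70 and 0.74) lie under the line, Cd247 above it (3.55, and a fitted 6.35 in liver, where its control arrays were not well above background and the allografts were at least 23.6-fold higher), and Lck, Lat, Cd3d and Cd3g between 3.96 and 5.51 on both axes.

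The 3 probes of Cd247 did not read alike. The brightest, designed on the transcript NM_001113391, gave the values above. The second, on NM_031162, read 6.37, 6.55 and 6.88 in heart allografts and 3.32, 2.99 and 3.29 in heart controls (log2 difference 3.40, SE 0.17, adjusted p = 0.000649), a rise of like size to that of the brightest probe. In liver it read 6.09, 6.38 and 6.41 at POD5 and 5.79, 6.16 and 5.16 at POD8 against 6.23, 2.67 and 3.03 in controls. The first liver control array stood apart, level with the allografts, and was the only control array well above background there. With it the differences were 2.32 (SE 0.98, adjusted p = 0.266) and 1.73 (SE 1.02, adjusted p = 0.386), and the difference between organs was 1.08 (adjusted p = 0.517), opposite in sign to that of the brightest probe. The third probe, also on NM_031162, stayed at background level on all 15 arrays, and its heart difference of 0.77 (adjusted p = 0.0299) is between signals of that level. Probe sequences were not used here, so which isoforms each probe reads was not tested.

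**Figure D4:**
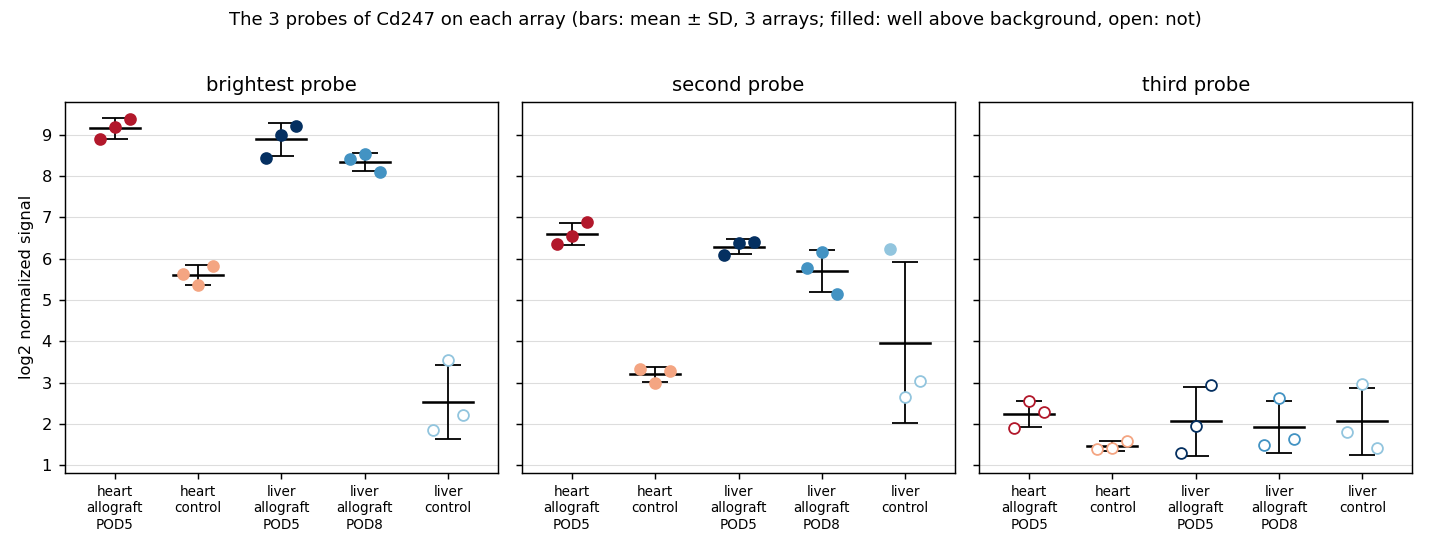
Log2 normalized signal (vertical axis) of each of the 3 Cd247 probes on the 15 arrays by group (horizontal axis); points are arrays, filled where well above background, and bars give the mean ± SD of 3 arrays. The first liver control array reads 6.23 on the second probe against 2.67 and 3.03 on the other liver controls, and 1.85 on the brightest probe.

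The order of the groups, on the brightest probe of each gene, was the same for 4 of the 9 genes. How many of all probes had this order or such gaps was not counted, so nothing is read from it. Cd3d, Cd3g, Cd247 and Lck each had heart allografts highest, then liver allografts at POD5 and POD8, heart controls and liver controls. In each of the 4 the allograft groups overlapped with their neighbours in that order and the lowest allograft group was separate from heart controls. Heart and liver controls overlapped for Cd3d and Lck and were separate for Cd3g and Cd247. On the second probe of Cd247, liver controls (mean 3.97) came before heart controls (mean 3.20) and overlapped with them. Lat had liver controls before heart controls, overlapping, and Lcp2 had POD8 before POD5. For Zap70 the order was liver at POD8, heart allografts, liver controls, liver at POD5 and heart controls, and only heart controls were separate from the group before them. For Cd3e it was liver at POD5, liver at POD8, heart allografts, liver controls and heart controls, and again only heart controls were separate. The groups of Trat1 all overlapped with their neighbours.

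As a description over the 15 arrays, Pearson's r of each gene with the mean of the other 8, standardized, was 0.99 for Lck, 0.98 for Cd3d, 0.96 for Lat, 0.95 for Cd3g, 0.90 for Cd247 and 0.87 for Lcp2. It was 0.59 for Cd3e, 0.48 for Zap70 and 0.33 for Trat1. The arrays fall into allograft and control groups. Over the 9 allograft arrays alone, from 3 groups, r was 0.93 for Lck, 0.92 for Lcp2, 0.42 for Zap70 and −0.69 for Cd3e, so that Cd3e tended to be higher on the allograft arrays where the other genes were lower. Of the other genes among 28767 probes well above background in at least 1 group, the 10 most like the mean of the 9 had r from 0.986 to 0.991. They were Icos, Nkg7, Unc13d, Cxcl9, Camk4 and Psmb8, with 4 probes named in the files only by transcript (AK004152, ENSMUST00000103291, ENSMUST00000103299 and U07661).

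The other genes of the pathway were read from lists ordered by role. Their counts stand beside the 15.6% of all probes called higher in heart, 2.38% in liver at POD5 and 3.53% at POD8. Of the coreceptors, Cd8a, which binds MHC class I and brings Lck to the receptor of cytotoxic T cells, read 12.001, 11.13 and 12.21 in heart allografts and 5.57, 5.43 and 6.27 in heart controls (log2 difference 6.02, adjusted p = 0.00088). It was not well above background on any liver control array, and liver allografts were at least 104-fold higher at POD5 (adjusted p = 0.00199) and at least 105.4-fold higher at POD8 (adjusted p = 0.000199). These p-values belong to the fitted differences and not to the bounds. Cd4, the coreceptor of helper T cells that macrophages can also carry, rose by 0.77 in heart (adjusted p = 0.033), a call kept in 1 of the 6 fits that left out an array, and did not pass in liver, with −0.16 at POD5 (adjusted p = 0.554) and −0.40 at POD8 (adjusted p = 0.0956). Cd4 read 5.54, 5.55 and 5.66 in liver controls and 3.98, 4.37 and 4.14 in heart controls. The genes Cd8b1, Trac, Trbc1, Trbc2 and Fyn had no named probe and were not analysed here.

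Of the other kinases and phosphatases that start the signal, 3 of 4 rose in heart and 2 of 4 in liver at each time. Txk, a Tec family kinase of T cells, rose by 3.13 in heart (adjusted p = 0.00224). Ptprc (CD45), the phosphatase of all white blood cells that keeps Lck active, rose in liver by 2.99 and 2.70, and Txk by 2.87 and 2.20. In heart, Ptprc gave 1.34 (adjusted p = 0.0929).

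Of 10 other adaptors and transducers, 7 rose and 1 fell in heart, 2 rose in liver at POD5 and 3 at POD8. Sh2d1a (SAP), the adaptor of SLAM family receptors, and Skap1, which links the receptor to integrins, led in each comparison. They rose by 3.83 and 3.72 in heart, Skap1 by 4.34 and 3.37 in liver, and Sh2d1a, below background in liver controls, was at least 9.03-fold and 5.41-fold higher. Nck1, an adaptor of many tissues, fell by 1.19 in heart (adjusted p = 0.00785). Of 12 downstream mediators, 6 rose in heart, led by Rasgrp1, which turns on Ras, at 3.74. In liver 2 rose at POD5, with Prkcq, a protein kinase C of T cells, at 3.04, and 3 at POD8, with Rasgrp1 at 2.61. The median of this list was 0.69 in heart, 0.00 at POD5 and 0.25 at POD8, and it holds broadly used genes such as the NFAT and calcineurin subunits.

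More negative regulators were called in heart than in liver, as was so for the members and for all probes. Of 17 measured, 13 rose in heart, 9 in liver at POD5 and 10 at POD8, none fell, and their median differences were 2.53, 1.79 and 1.91. In heart, Cd5 and Cd6, surface receptors that dampen the signal, led with 4.996 and 4.99. In liver, Ptpn22, a phosphatase that acts on Lck and Zap70, rose by 3.96 and 3.54, and the adaptor Lax1, below background in controls, was at least 3.82-fold and 3.07-fold higher. Cd5 rose by 3.59 and 3.04 in liver and Ptpn22 by 2.53 in heart. With genes that were below background in controls set at their bound, the liver medians were 1.71 and 1.62. The liver counts of these lists rested on few arrays as well, since without the second POD5 array every list count at POD5 was 0 but that of the coreceptors. At POD8, leaving out an allograft array left 2 to 4 negative regulators called and none of the other kinases, adaptors or downstream mediators.

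Of 10 genes that receptor signals switch on, 6 rose in heart, 4 in liver at POD5 and 5 at POD8. Ifng, the interferon of activated T and natural killer cells, rose by 10.56, 5.79 and 6.19, and Tnfrsf9 (4-1BB) by 4.72 in heart. Tnfrsf9 was below background in liver controls, and liver allografts were at least 8.58-fold and 8.37-fold higher. The median differences were 1.87, 2.43 and 1.93, and with bounds in place 2.24 and 1.51 in liver. Egr1, an early-response gene of many cell types, did not pass in any of the 3, with 0.07, 0.01 and −0.48.

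Of 13 counterparts that other leukocytes use, 8 rose in heart, 1 in liver at POD5 and 5 at POD8, with medians of 0.70, 1.22 and 1.39. Syk, the kinase of the Zap70 family in B and myeloid cells, differed by 0.55 in heart (adjusted p = 0.035), 1.32 at POD5 (adjusted p = 0.0954) and 1.86 at POD8 (adjusted p = 0.037). It read 9.68, 9.5 and 9.51 in heart controls and 6.81, 7.87 and 7.72 in liver controls, the reverse of the order that Zap70 showed between these tissues. Lat2, the Lat counterpart of B and myeloid cells, differed by 1.63 in heart, 2.46 at POD5 (adjusted p = 0.0803) and 2.39 at POD8. Fcer1g, the signal chain of Fc receptors that resembles Cd247, differed by 1.19, 1.44 (adjusted p = 0.061) and 1.92. Blnk, the B cell counterpart of Lcp2, did not pass, with −0.35, −0.15 and 0.44. Clnk, an adaptor related to Lcp2, rose by 2.69 in heart, and Hcst (DAP10), the adaptor of NKG2D, was the gene called in liver at POD5 with 1.88.

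**Figure D5:**
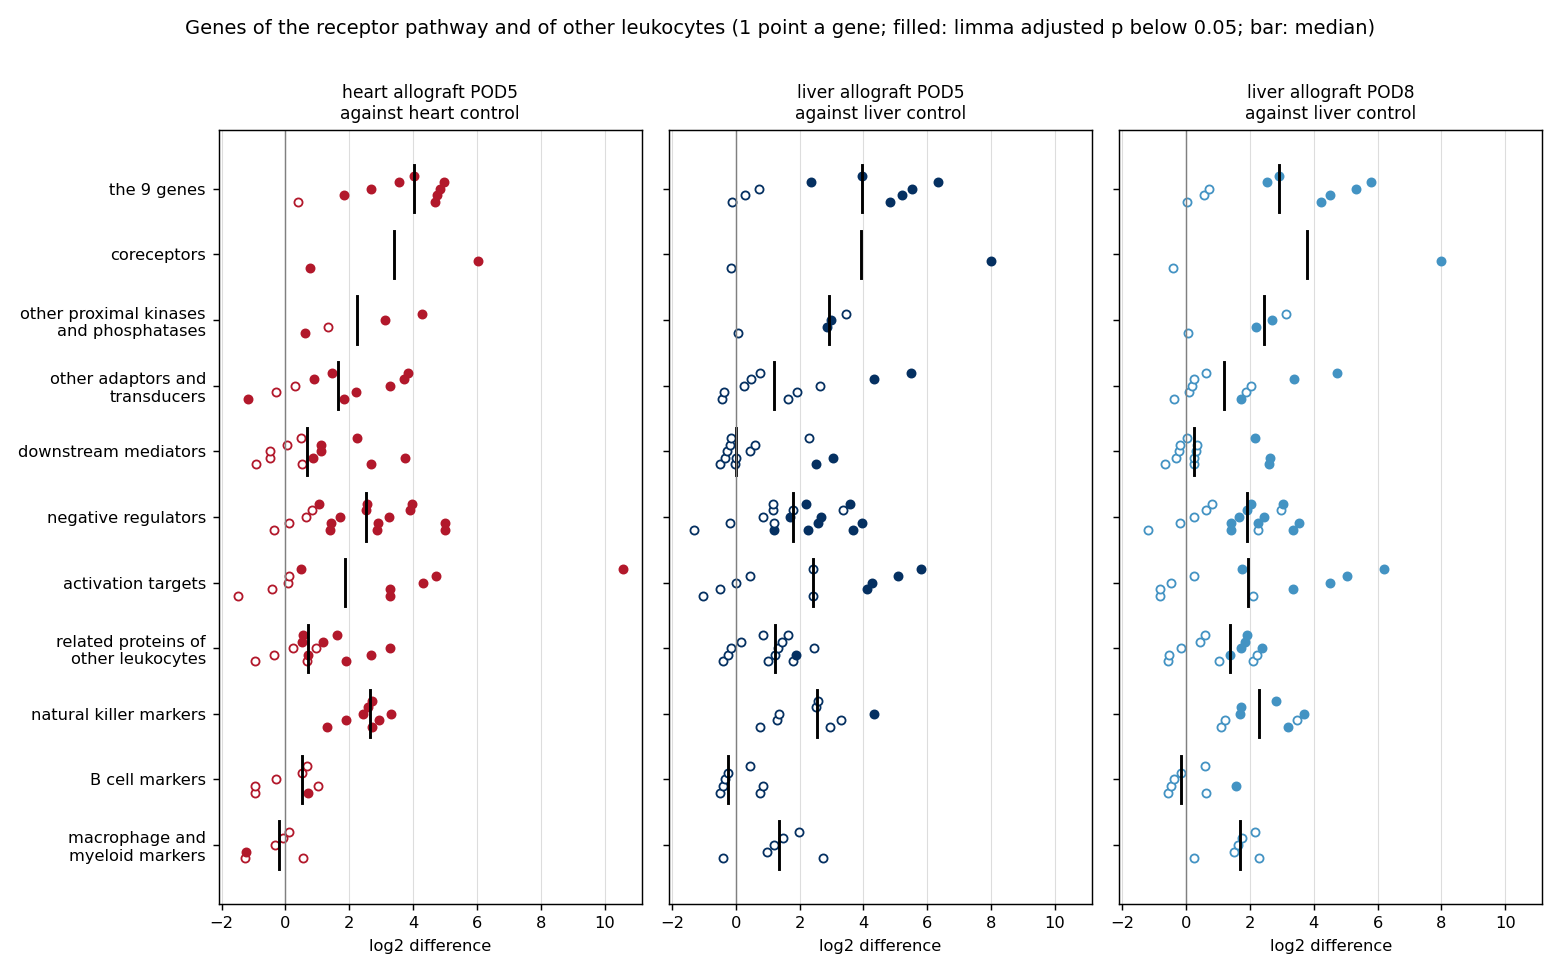
Log2 difference, allograft minus control (horizontal axis), of each measured gene of the lists (vertical axis) in heart at POD5 and liver at POD5 and POD8; each point is 1 gene, filled where limma gave an adjusted p under 0.05, and the bar is the median. The 9 genes have medians of 4.02, 3.96 and 2.91, against 0.51, −0.23 and −0.15 for the B cell markers; genes below background in a control group stand at their fitted difference.

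Markers of other leukocytes were read beside the members, and their part in the members' values was not tested. All 8 natural killer cell markers rose in heart (median 2.65). In liver 1 of 8 rose at POD5 (median 2.54, or 1.03 with genes below background in controls at their bound) and 5 of 8 at POD8 (2.28, or 1.46). With an array left out, 0 to 2 were called at POD5 and 0 to 4 at POD8, with 0 when any POD8 array was left out. The summed normalized signal of these 8 was 2697 to 3195 in heart allografts, 456 to 641 in heart controls, 1212 to 2238 and 998 to 1437 in liver allografts at POD5 and POD8, and 96.4 to 216 in liver controls, where only 1 or 2 of them were well above background. Of the B cell markers 1 of 7 rose in heart, close to the 15.6% of all probes that did, none at POD5 and 1 at POD8. Their sum was 448 to 889 in heart allografts and 625 to 1736 in heart controls. In liver it was 533 to 948 and 753 to 966 in allografts at POD5 and POD8, and 593 to 1139 in controls. Of 6 macrophage and myeloid markers none passed as higher in the 3 comparisons, with medians of −0.19 in heart, 1.35 in liver at POD5 and 1.70 at POD8, and without the first liver control array 4 of the 6 were called higher at POD8. The marker Clec4f of Kupffer cells fell in heart by 1.25 with allografts not well above background. The sum of the 6 was 23684 to 28925 in heart allografts, 21857 to 33408 in heart controls, 15808 to 23809 and 27170 to 28972 in liver allografts, and 7117 to 19424 in liver controls.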

How the data were processed

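Total RNA of 15 tissue samples was hybridised in 1 colour (Cy3) to Agilent mouse arrays, and the deposited scanner tables give the authors' Feature Extraction 10.5.1.1 processed signal, an intensity with background already subtracted and not normalized between arrays. The header names the annotation build mm9, and no comparisons made by the authors were used.

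Outlier spots, as marked by the scanner software, were removed, the rest averaged per probe as log2, and the 15 arrays quantile normalized together. A probe was well above background where at least 0.5 of its spots were marked so. Each comparison was fitted on its own arrays with limma 3.58.1 in R 4.3.3 (two-sided, Benjamini-Hochberg over all probes, threshold 0.05), and a gene was read through its brightest probe. With 3 arrays a group, a permutation test of a single gene cannot go below p = 0.1, so none was used. Of 41174 probes, 26690 (64.82%) were named by matching their transcript to RefSeq GRCm38.p6, which gave 18217 symbols. The others kept the name in the files.

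The members and lists were chosen with earlier results of these data known. All probes of the 9 genes are described. From the other pathway lists the 2 higher and 1 lower called genes of largest difference in each comparison are named, with Cd8a, Cd4, Syk, Lat2, Blnk, Fcer1g, Ptpn22 and Cd5. Egr1, Clec4f and the heart value of Ptprc were named after their values were seen. Some genes these rules name are not reported here. Likeness names the 10 genes of highest r. Fits were tested on simulated data. Alternatives were other normalization, normexp background (offset 50) on the median spot and background signals, filters, priors, the standardized fold change and t-test of the methods, replicate and slide blocks, and leaving out each array. The number of arrays limits the precision. Figures were drawn with matplotlib.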

Additional observations from a re-analysis of the deposited data

Results flagged for a closer look

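For 3 genes the change with grafting differed between heart and liver at POD5 by a test of the difference itself, the interaction term of 1 limma fit of 12 arrays. For Zap70 the log2 difference was larger in heart by 4.84 (adjusted p = 5.15e-05), and all 3 heart allograft arrays lay above all 3 heart controls while the liver groups overlapped. For Cd3e it was larger in heart by 1.96 (adjusted p = 0.0119). For Cd247 the value was −2.80 (adjusted p = 0.0122) on the brightest probe and 1.08 (adjusted p = 0.517) on the second, and the brightest probe was not well above background on any liver control array. Each liver value of Zap70 and of Cd3e comes from 1 probe whose sequence was not used here. The differences of both genes in liver also rest on the scaling between arrays, since the liver controls were dimmest. No cause of these differences was tested. Donor and recipient strain differed together with the organ, and of the liver arrays in this fit only the third POD5 array shared a slide with heart arrays.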

How the results depend on the processing

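The heart result kept 8 of the 9 genes called under each other setting but 75th percentile scaling, which called 9, and the standardized fold change, which called 5, and with each array left out (8 to 8). For liver at POD5 the count of 6 fell to 1 by the methods' t-test, 2 at an adjusted p under 0.01 and 0 with the replicate block, and ran from 0 (without the second allograft array) to 4 with an array left out. It was 5 with slide as a random block. For liver at POD8 the count of 6 fell to 3 by the t-test, 3 at 0.01 and 0 with the replicate block or with slide as a fixed block, and ran from 2 (without the first allograft array) to 7 (without the third control). Between the controls the count of 5 was 0 by the standardized fold change and 3 by the t-test, at 0.01 or with slide as a random block, and ran from 3 to 7. Between the allografts the count of 0 was 1 with normexp, with the filter on dim probes, in 1 fit of 5 groups and with the trended robust prior, and ran from 0 to 3. The difference between organs kept 3 genes except 2 with normexp and 1, Zap70, at 0.01, and kept 3 with any array left out. Between POD8 and POD5 it stayed at 0. Zap70 was called in 23 of 23 alternatives of the difference between organs (3.35 to 5.05), Cd3e in 22 and Cd247 in 21, which with normexp gave −0.62 (adjusted p = 0.115, against 0.0019 to 0.115 over its alternatives). The cause of these shifts was not tested, except that left-out arrays and blocks leave fewer samples or degrees of freedom.

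Signs changed only for differences that had not passed. With normexp, Trat1 gave −0.0037 in heart, −0.017 between POD8 and POD5 and −0.17 between organs, Zap70 −0.020 at POD8, and Lat 0.052 between controls. With 75th percentile scaling, Trat1 gave −0.21 and −0.15 in liver and −0.20 between controls, and Zap70 −0.074 at POD8. By the standardized fold change Zap70 gave 0.084 at POD5 and −0.14 between allografts, and Blnk −0.032 at POD8. With slide as a random block Cd3e gave 0.090 between POD8 and POD5, and Lck −0.088 and Trat1 −0.24 between organs. With slide as a fixed block, the allografts differed by −0.11 for Cd3d, 0.21 for Cd3e, −0.071 for Cd247, −0.17 for Lat and −0.0030 for Trat1. With an array left out, Zap70 ran from −0.17 to 0.012, Trat1 from −0.15 to 0.81 and Blnk from −0.41 to 0.0010 at POD5, and Zap70 from −0.020 to 0.14 at POD8. Between POD8 and POD5 Cd3e ran from −0.27 to 0.17 and Lcp2 from −0.045 to 0.40. Between controls Lat ran from −0.35 to 0.19, between allografts Zap70 from −0.070 to 0.21, and between organs Lck from −0.19 to 0.39 and Trat1 from −0.40 to 0.55.

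Over all probes, 75th percentile scaling moved the median difference to 0.47 in heart, −0.39 and −0.47 in liver, −0.81 between controls and 0.65 between organs. It called 21208 probes in heart (74.1% higher, against 48.7% of 13116), 13022 at POD8 (18.0% higher, against 71.0% of 2046) and 15707 between organs (82.6% against 46.9% of 5605), and turned the share higher between controls from 52.9% to 29.6%. In heart the standardized fold change called 242 probes and 0.01 gave 5958, with 7547 to 17261 when an array was left out. At POD5 the count of 1301 became 2204 with the dim filter, 6205 in 1 fit of 5 groups, 346 by the standardized fold change, 231 by the t-test, 134 at 0.01, 573 with random slides and 28 to 1027 with an array left out. At POD8 the count became 4791, 359, 816 and 409 for the same fit, fold change, t-test and threshold, and 300 to 2659 with an array left out. Between POD8 and POD5 it reached 1 with the scaling, 6 with the filter, 12 in the fit of 5 groups and 3 with an array left out. Between controls the standardized fold change called 595, between allografts it called 1301 and 0.01 gave 7053, and between organs 0.01 gave 1511, random slides 2758 and left-out arrays 2876 to 7200.

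Deviations from the group means correlated little or negatively between arrays of the same replicate number (r of −0.11 to 0.03 in heart, −0.35 to −0.23 and −0.04 to 0.20 in liver, over 18416 probes). Such values cannot show or exclude a pairing, and the labels name none. The first and second arrays of POD8 and of the liver controls also shared slide 4. The replicate block left 8 genes called in heart, 4 between controls and 3 between organs, and called 0 of all probes in both liver comparisons with controls. Liver control arrays were dimmest, which limits Cd247, Cd3g, Lat and Trat1 there, and 3 arrays a group limit the precision of every value.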
